A study of Mus musculus with 10 samples.

Results

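Wif1 (Wnt inhibitory factor 1) and 9 related genes were followed across all 10 arrays of a study of mouse gastrocnemius, the large calf muscle. The genes were those in the array table whose probe set carries exactly 1 gene symbol and whose symbol is Wif1, Sfrp1, Sfrp2, Sfrp4, Frzb, Dkk2, Dkk3, Rspo3, Axin2 or Ccnd1. All 10 were found among the 19938 genes named this way, each with 1 probe set, and 9 passed the filter on low signal. Rspo3 did not. Wif1 was chosen because its signal was low in the F0 generation, so the F0 values of these genes are a description and are not tested.

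All animals were C57BL/6 males, and each array held RNA of 5 animals, pooled after dilution to 98 ng/µl. F0 EX mice had voluntary exercise and F0 SED mice a sedentary life. Both were 28 weeks old, were mated with partners of the same exposure, and gave 1 pool each. F1 and F2 mice were 8 weeks old and all sedentary, so EX and SED name the exposure of their ancestors. F2 mice came from matings of F1 littermates. Each ancestry gave 2 pools in F1 and 2 in F2. The labels number these pools without saying that they hold different animals, and p-values therefore measure only the spread between pools, which may be technical. F0 and descendants differed in age and generation at once, which cannot be told apart. F0 EX also differed from the descendants in its own exercise, while F0 SED was sedentary as they were. In pooled bulk muscle, fewer cells of a type and less RNA per cell cannot be told apart either.

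Wnt proteins are secreted signals that bind Frizzled receptors and LRP coreceptors. In the canonical branch this stabilises beta-catenin, which enters the nucleus and switches on target genes together with TCF and LEF factors. Secreted modulators act before the receptor: WIF1 and the SFRP family (Frzb is its member SFRP3) bind Wnt proteins outside the cell, DKK2 binds the LRP coreceptors, and R-spondins enhance the response. In skeletal muscle, Wnt signals are known for roles in development and in the regeneration that starts from satellite cells.

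Promoter sequences are shown for 4 genes: Wif1, Frzb and Dkk2, in which both F0 pools lay on the same side of all descendants, and Axin2, a classical feedback target of the pathway, in which they did not. RefSeq (GRCm38.p6) start sites gave a promoter entry for 5 of the 10 genes, these 4 and Sfrp2. Each sequence is the 250 bases before the start, 5′ to 3′ on the strand of the gene, with the core of the TCF and LEF recognition sequence, CTTTG or its reverse complement CAAAG, in capitals. The windows are chr10:121033754-121034003 on the plus strand for Wif1, chr2:80447397-80447646 on the minus strand for Frzb, chr3:132085042-132085291 on the plus strand for Dkk2 and chr11:108920099-108920348 on the plus strand for Axin2.

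Wif1: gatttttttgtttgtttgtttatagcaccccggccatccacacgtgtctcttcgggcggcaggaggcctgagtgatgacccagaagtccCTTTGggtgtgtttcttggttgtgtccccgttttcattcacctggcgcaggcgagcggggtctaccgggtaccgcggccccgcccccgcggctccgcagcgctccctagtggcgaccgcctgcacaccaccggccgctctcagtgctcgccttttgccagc

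Frzb: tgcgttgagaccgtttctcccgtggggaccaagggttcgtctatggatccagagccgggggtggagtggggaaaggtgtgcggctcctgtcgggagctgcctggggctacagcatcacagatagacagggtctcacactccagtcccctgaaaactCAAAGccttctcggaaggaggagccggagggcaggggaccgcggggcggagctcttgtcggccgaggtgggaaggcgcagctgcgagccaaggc

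Dkk2: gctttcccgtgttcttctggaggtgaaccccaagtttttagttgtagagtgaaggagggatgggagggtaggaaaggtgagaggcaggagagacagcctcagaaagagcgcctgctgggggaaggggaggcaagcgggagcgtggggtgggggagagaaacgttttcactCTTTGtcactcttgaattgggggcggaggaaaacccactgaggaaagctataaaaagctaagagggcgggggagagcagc

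Axin2: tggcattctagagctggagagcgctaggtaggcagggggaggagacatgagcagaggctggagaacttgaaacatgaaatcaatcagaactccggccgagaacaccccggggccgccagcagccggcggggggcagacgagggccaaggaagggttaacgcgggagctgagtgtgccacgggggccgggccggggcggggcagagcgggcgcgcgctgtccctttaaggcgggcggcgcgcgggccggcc

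One CTTTG core was found in the Wif1 window, starting 161 bases upstream, 1 in the Frzb window at 94 bases, 1 in the Dkk2 window at 80 bases, and 0 in the Axin2 and Sfrp2 windows. Both strands were searched. The Axin2 window lies inside the annotated gene, which begins at chr11:108917828, and precedes a start within it. The Sfrp2 window (chr3:83766071-83766320) also lies inside its gene, which begins at chr3:83765750. The 0 for Axin2 and Sfrp2 covers those windows alone. The Dkk2 window ends inside its gene, which begins at chr3:132085266, so its positions refer to a start within the gene. The core was present in 48.6% of 32851 RefSeq promoters of the same length. The longer forms, CTTTG followed directly by AA, AT, TA or TT, contain the core. They were present in 14.8% of promoters and had 0 matches in these 5 windows. TATAAA (12.4% of promoters) matched in the Wif1 and Dkk2 windows, and the GC box GGGCGG (32.7%) in all but the Sfrp2 window. The TATAAA match of Wif1 was on the opposite strand, at the end of the window far from the start. That of Dkk2 was on the strand of the gene, near the start. The GC content was 62.8% for Wif1, 64.4% for Frzb, 55.6% for Dkk2, 69.2% for Axin2 and 63.6% for Sfrp2, against a median of 52.4% over all promoters. A match describes these letters and is no sign of binding.

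The labelled tissue was checked with 6 markers of skeletal muscle fibres, which were high in all pools, with a mean log2 signal of 12.84 in F0 EX, 12.57 in F0 SED and 12.68 to 13.04 in the descendants. A pair of arrays stood apart: across the 11963 genes kept, the median correlation with the remaining arrays was 0.974 for F0 SED and 0.979 for F1 EX pool 1, against 0.986 to 0.993 for the rest. All signals are on the log2 scale of the deposited table, which has no detection calls. Levels are compared between pools for 1 gene at a time, not between genes, and precision is limited by the number of arrays.

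**Figure D1:**
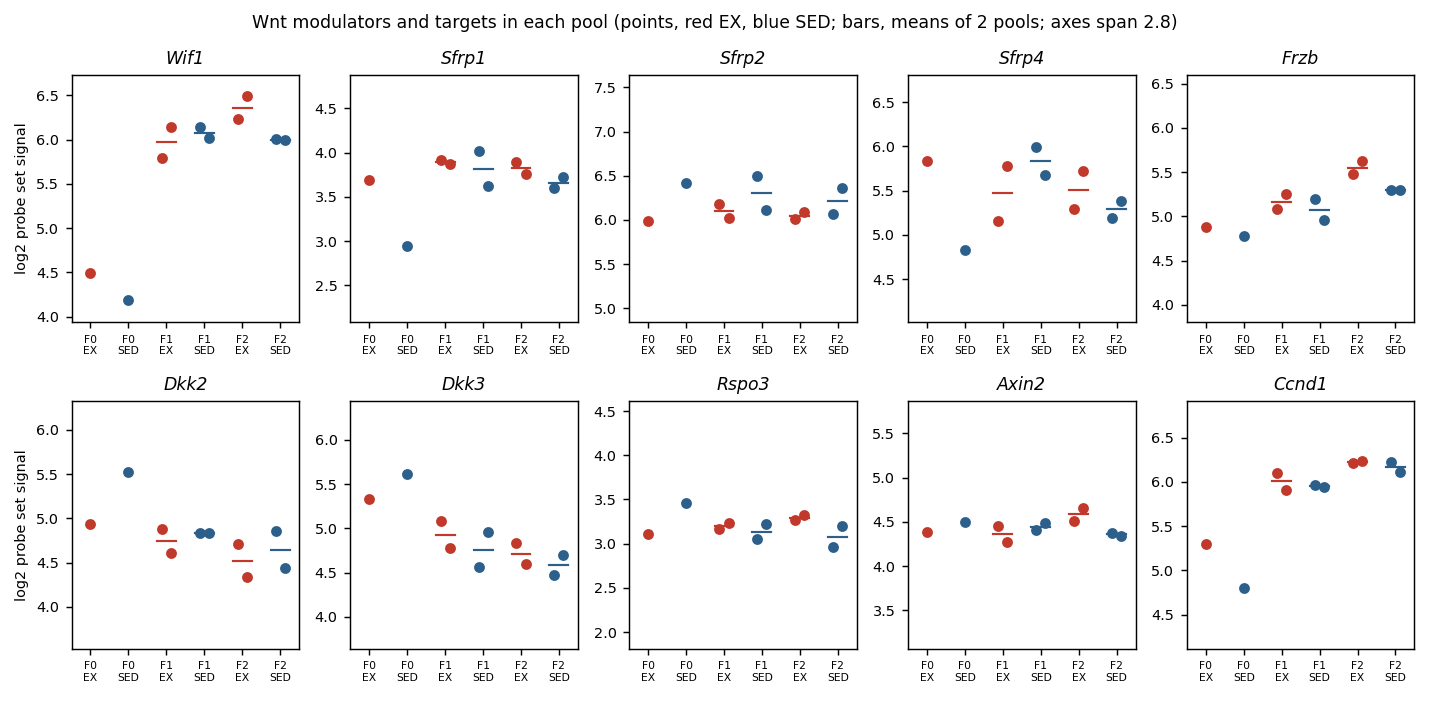
Log2 probe set signal of the 10 genes in each of the 10 pools; points are pools, red for EX and blue for SED, bars are means of 2 pools, and every vertical axis spans the same length on the log2 scale. Wif1 and Ccnd1 lay lower in both F0 pools than in all 8 descendant pools, Dkk2 and Dkk3 lay higher, and for Axin2 both F0 pools lay within the descendants' range.

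Wif1, which binds Wnt proteins and keeps them from their receptors, had the largest difference between F0 and descendants of the 10 genes. Its signal was 4.50 in F0 EX and 4.18 in F0 SED. In F1 it was 5.79 and 6.14 in the EX pools and 6.14 and 6.02 in the SED pools. In F2 it was 6.23 and 6.49 in the EX pools and 6.00 and 5.99 in the SED pools. Both F0 pools thus lay below all 8 descendant pools, with 1.30 between F0 EX and the nearest descendant, F1 EX pool 1. The descendants had a mean of 6.10 ± 0.20 (SD, n = 8) and the F0 pools a mean of 4.34, a difference of -1.76 on the log2 scale or 3.39-fold lower signal in F0. By this difference Wif1 ranked 7 from the lowest of 11963 genes. The difference was -1.92 without F0 EX and -1.61 without F0 SED. The F0 pools themselves differed by 0.31, with EX higher.

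The secreted Frizzled-related proteins, which share a cysteine-rich domain with the Frizzled receptors, differed less between F0 and descendants than Wif1, and of the 4 genes followed here only Frzb had both F0 pools below all descendants. Its signal was 4.89 in F0 EX and 4.78 in F0 SED. In F1 it was 5.09 and 5.25 (EX) and 5.20 and 4.96 (SED), and in F2 5.48 and 5.63 (EX) and 5.30 and 5.30 (SED). The gap to the nearest descendant was 0.07, and the difference from the descendant mean of 5.28 ± 0.21 (SD, n = 8) was -0.44 or 1.36-fold.

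Sfrp1 lay low in 1 of the F0 pools. It was 3.70 in F0 EX and 2.95 in F0 SED, the latter below the level of 3.23 used to filter out low signal. The F1 pools had 3.92 and 3.87 (EX) and 4.02 and 3.62 (SED), and the F2 pools 3.89 and 3.76 (EX) and 3.60 and 3.72 (SED). F0 EX lay within the descendants' range and F0 SED below it, so that the difference of -0.48 from the descendant mean of 3.80 ± 0.15 (SD, n = 8) was -0.10 without F0 SED and -0.85 without F0 EX.

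Sfrp4 had the widest difference between the F0 pools among the 10 genes. Its signal was 5.84 in F0 EX and 4.83 in F0 SED. In F1 it was 5.16 and 5.78 (EX) and 6.00 and 5.68 (SED), and in F2 5.30 and 5.72 (EX) and 5.19 and 5.38 (SED). F0 EX lay inside the descendants' range and F0 SED below it. The descendants spread widely as well, with a mean of 5.53 ± 0.31 (SD, n = 8), and the difference of F0 from them was -0.19, or 0.31 without F0 SED and -0.70 without F0 EX.

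The F0 pools lay apart for Sfrp2. It was 5.99 in F0 EX and 6.42 in F0 SED, 6.18 and 6.02 in F1 EX, 6.50 and 6.11 in F1 SED, 6.01 and 6.09 in F2 EX, and 6.07 and 6.36 in F2 SED. The descendant mean was 6.17 ± 0.17 (SD, n = 8) and the difference of F0 from it 0.03. F0 EX was the lowest pool of all and lay just below the descendants, while F0 SED lay within their range near its top. Both F1 SED pools lay above both F2 EX pools, and the pools of EX and SED ancestry overlapped within each descendant generation.

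The Dickkopf genes lay on the other side. Dkk3 encodes a secreted protein of the Dickkopf family whose part in Wnt signalling is less clear than that of its relatives. Its signal was 5.33 in F0 EX and 5.61 in F0 SED. In F1 it was 5.08 and 4.78 (EX) and 4.56 and 4.96 (SED), and in F2 4.83 and 4.60 (EX) and 4.47 and 4.69 (SED). Both F0 pools lay above every descendant, by at least 0.26, and the difference from the descendant mean of 4.75 ± 0.21 (SD, n = 8) was 0.73 or 1.66-fold, rank 48 from the highest of 11963 genes.

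Dkk2, whose product binds LRP coreceptors, was 4.94 in F0 EX and 5.52 in F0 SED. In F1 it was 4.89 and 4.61 (EX) and 4.83 and 4.83 (SED), and in F2 4.71 and 4.34 (EX) and 4.86 and 4.44 (SED). F0 SED stood clear of the descendants, while F0 EX was above the highest of them by 0.05. The difference from the descendant mean of 4.69 ± 0.21 (SD, n = 8) was 0.54, or 0.25 without F0 SED and 0.83 without F0 EX.

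Rspo3 encodes an R-spondin, which binds LGR receptors and keeps Frizzled receptors at the cell surface. Its signals were near the filter of 3.23. They were 3.11 in F0 EX and 3.46 in F0 SED, 3.16 and 3.23 in F1 EX, 3.05 and 3.22 in F1 SED, 3.27 and 3.32 in F2 EX, and 2.97 and 3.20 in F2 SED. F0 SED was the highest pool and F0 EX lay within the descendants' range, whose mean was 3.18 ± 0.12 (SD, n = 8).

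The targets differed from each other. Ccnd1, which encodes cyclin D1, a driver of entry into the cell cycle with many inputs besides Wnt, was 5.30 in F0 EX and 4.80 in F0 SED. In F1 it was 6.10 and 5.91 (EX) and 5.96 and 5.94 (SED), and in F2 6.22 and 6.23 (EX) and 6.23 and 6.11 (SED). Both F0 pools lay below all descendants, by at least 0.61, and the descendants spread little around their mean of 6.09 ± 0.13 (SD, n = 8). The difference was -1.04 or 2.05-fold lower in F0, rank 27 from the lowest of 11963 genes. It was -0.79 without F0 SED and -1.29 without F0 EX.

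Axin2, a scaffold of the complex that degrades beta-catenin, is switched on by that same signal and is widely used as its readout. It was 4.38 in F0 EX and 4.49 in F0 SED, 4.45 and 4.28 in F1 EX, 4.41 and 4.49 in F1 SED, 4.51 and 4.66 in F2 EX, and 4.38 and 4.34 in F2 SED. Both F0 pools lay within the range of the descendants, with means of 4.44 on both sides and an SD of 0.12 (n = 8) among the descendants.

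**Figure D2:**
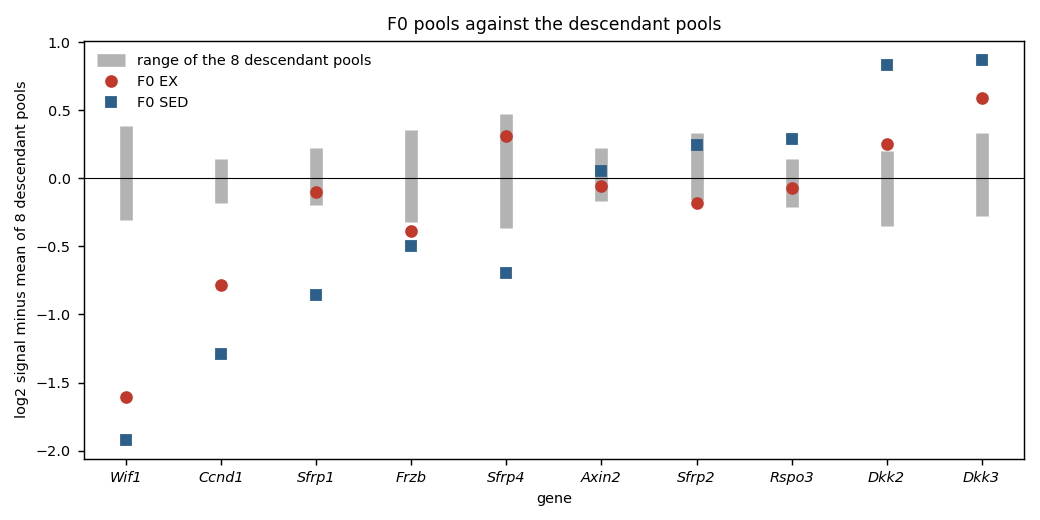
Log2 signal of F0 EX (circles) and F0 SED (squares) minus the mean of the 8 descendant pools, for each gene; grey bars span the descendants' range. Wif1 (-1.76 on average) and Ccnd1 (-1.04) lay furthest below, Dkk2 (0.54) and Dkk3 (0.73) above.

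Counted over the 10 genes, both F0 pools lay below all descendants for 3 (Wif1, Frzb and Ccnd1) and above all of them for 2 (Dkk2 and Dkk3). Over the 11963 genes that passed the filter the shares were 6.65% and 5.79%. Since Wif1 was picked from this contrast, nothing is read from these counts. F0 EX lay within the descendants' range for 4 of the 10 genes and F0 SED for 2, so that they lay outside it for 6 and 8. Over the 11963 genes F0 EX lay outside for 36.1% and F0 SED for 46.3%.

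Cell type markers moved between F0 and descendants too. The mean log2 signal of 9 fibroblast markers was 8.08 for F0 EX and 7.80 for F0 SED, and 8.58 to 8.91 in the descendants. Averaged over both F0 pools, all 9 lay below the descendant mean. Singly, F0 EX lay within the descendants' range for Lum (5.88), Dpt (7.42) and Cd34 (8.10), and F0 SED for Dpt (7.07). Tenocyte markers (8 genes) had 6.50 in both F0 pools against 6.93 to 7.50, and endothelial markers (7 genes) 6.64 and 6.29 against 6.84 to 7.01. In F0 EX the endothelial markers Tek (7.18) and Emcn (5.59) lay within the descendants' range. Schwann cell markers (3 genes) had 5.73 and 5.87 against 6.08 to 6.44. Macrophage markers (6 genes) had 5.77 and 5.48 against 5.73 to 6.07. By limma 0 Schwann cell and 0 macrophage markers were called. The mean signals of adipocyte and smooth muscle markers lay within the descendants' range in both F0 pools. Singly, both F0 pools lay above all descendants for the adipocyte marker Cidec (5.67 and 5.97). They lay below all of them for the smooth muscle marker Smtn (6.25 and 6.45). Neither gene was called (limma adjusted p = 0.0857 and 0.208). In limma with Benjamini-Hochberg adjustment, 3 of the 9 fibroblast markers fell in F0 against descendants, as did 5 of the 8 tenocyte and 4 of the 7 endothelial markers, and 0 rose. The 3 fibroblast markers were the collagen genes Col1a1, Col1a2 and Col3a1, by -2.27, -1.88 and -1.50, and the same 3 were called without F0 SED. Without that pool 1 tenocyte marker (Tnmd) and 1 endothelial marker (Cdh5) were called, and with array weights 0 of either list. Of all 11963 genes, 1.8% were called lower and 1.04% higher in this comparison.

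Keratinocyte markers stood the other way. The 4 that passed the filter had a mean of 4.32 for F0 EX and 5.26 for F0 SED, and 3.30 to 3.71 in the descendants, and Krt5, Krt10 and Krtdap were called higher in F0 by limma, of which Krtdap was called without F0 SED. Krt1 and Dsp, also keratinocyte markers, were below the filter. The filter used the mean over all 10 pools. In the descendants Krt5 (mean 3.072) and Krtdap (2.965) lay below its 3.23, so both passed it through their F0 values. For these genes, being higher in F0 was thus in part set by the filter. Satellite cell markers (4 genes) had 4.21 and 4.37 in F0 and 4.34 to 4.65 in the descendants, with 0 called. Of 9 markers of proliferating cells on the array, 8 were below the filter. The part of these markers in the values of Wif1, Ccnd1, Dkk2 and Dkk3 was not tested.

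**Figure D3:**
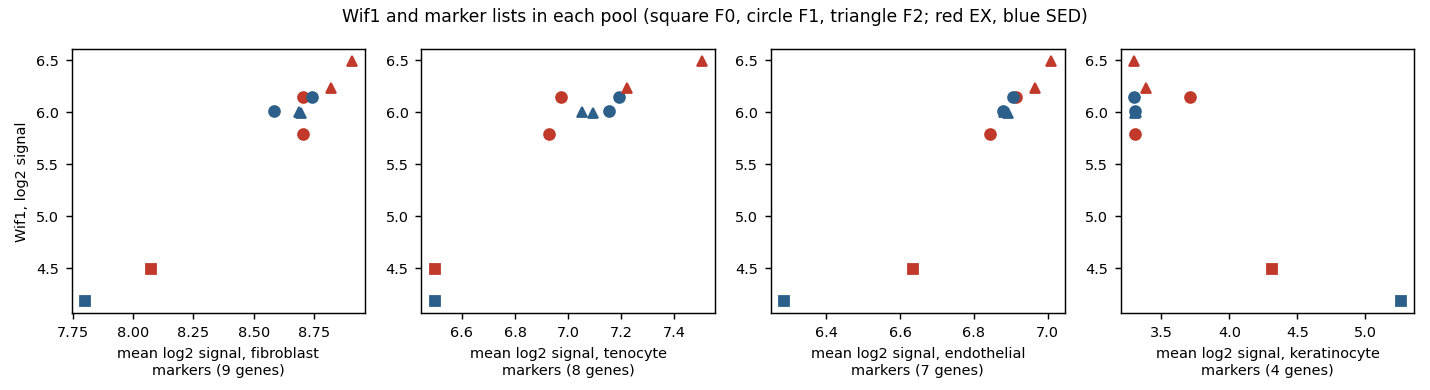
Log2 signal of Wif1 in each pool against the mean log2 signal of fibroblast, tenocyte, endothelial and keratinocyte markers; squares are F0, circles F1 and triangles F2, red for EX and blue for SED. The F0 pools were low in Wif1 and in the first 3 lists and high in the keratinocyte list, and F2 EX pool 2 was highest in Wif1 and in the first 3 lists.

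The genes whose signal followed that of Wif1 most closely over all 10 arrays were Col1a2 (Pearson r = 0.993) and Sparc (0.982), which encode matrix proteins, Mybph (0.981), a myosin-binding protein, Klhdc3 (0.975) and Mfap2 (0.972), a microfibril protein. All 5 were lower in both F0 pools than in every descendant, a gap that these correlations include. Over the 8 descendant arrays alone the closest were Myct1 (0.978), Bbs4 (0.966), Kdelr3 (0.951), Exoc6 (0.945) and Emilin1 (0.941). The lists share 0 genes, and the values come from a search over 11963 genes on few arrays, so they are a description.

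The exposed generation itself was compared in F0 EX and F0 SED, by size alone because each had 1 pool. Signal was higher by at least 0.5 on the log2 scale in F0 EX for 3 of the 10 genes, Sfrp4 (1.01), Sfrp1 (0.75) and Ccnd1 (0.50), and lower for 1, Dkk2 (-0.58). Of the 11963 genes 15.3% were higher and 5.38% lower by that much. The other differences were 0.31 for Wif1, 0.11 for Frzb, -0.11 for Axin2, -0.28 for Dkk3, -0.36 for Rspo3 and -0.43 for Sfrp2. F0 SED is the array that stood apart most, and it lay further from the descendant mean than F0 EX for 9 of the 10 genes, all but Axin2.

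These sizes moved with the scaling. Setting the array medians equal added 0.15 to each difference, which made Axin2 0.04, Dkk2 -0.44 and Ccnd1 0.65. Quantile normalization gave 0.45 for Ccnd1 and -0.61 for Sfrp2, so that 2 genes were then higher by 0.5 and 2 lower. Wif1 was higher in F0 EX under each scaling, by 0.31 to 0.46.

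Effects of exercise in the ancestors were looked for in the F1 and F2 mice, which had not exercised. Over both generations, no difference between EX and SED ancestry passed the threshold in these genes. The limma fit called 0 of the 9 genes that passed the filter at an adjusted p of 0.05, and 0 had an unadjusted p under 0.05. The background was 0.0% of 11963 genes called and 4.99% (597 genes) under the unadjusted value. For 0 of 10 genes did the 4 EX pools lie wholly above or below the 4 SED pools, which was seen in 1.75% and 1.28% of all genes. Estimates ran from -0.18 for Sfrp2 to 0.17 for Frzb, 6 of 9 were above 0, and their median was 0.07 against 0.01 over all genes.

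The intervals give the sizes of difference that the arrays leave possible. For Wif1 the difference was 0.13 (95% interval -0.15 to 0.40), with means of 6.16 ± 0.29 (SD, n = 4) in EX and 6.04 ± 0.07 (SD, n = 4) in SED. This value moved with single pools, to 0.028 without F2 EX pool 2 and 0.24 without F1 EX pool 1. With array weights it was 0.26, with an interval above 0 (0.03 to 0.48) and a limma adjusted p = 0.693. For Frzb it was 0.17 (-0.04 to 0.38, limma adjusted p = 0.888) and for Sfrp2 -0.18 (-0.43 to 0.06, limma adjusted p = 0.888). Axin2 had 0.07 (-0.14 to 0.29) and Ccnd1 0.05 (-0.13 to 0.24). With values as deposited, no weights and all pools, the interval bounds of the 9 genes lay between -0.46 and 0.41. Rspo3, fitted without the filter, had 0.14 (limma adjusted p = 0.898).

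**Figure D4:**
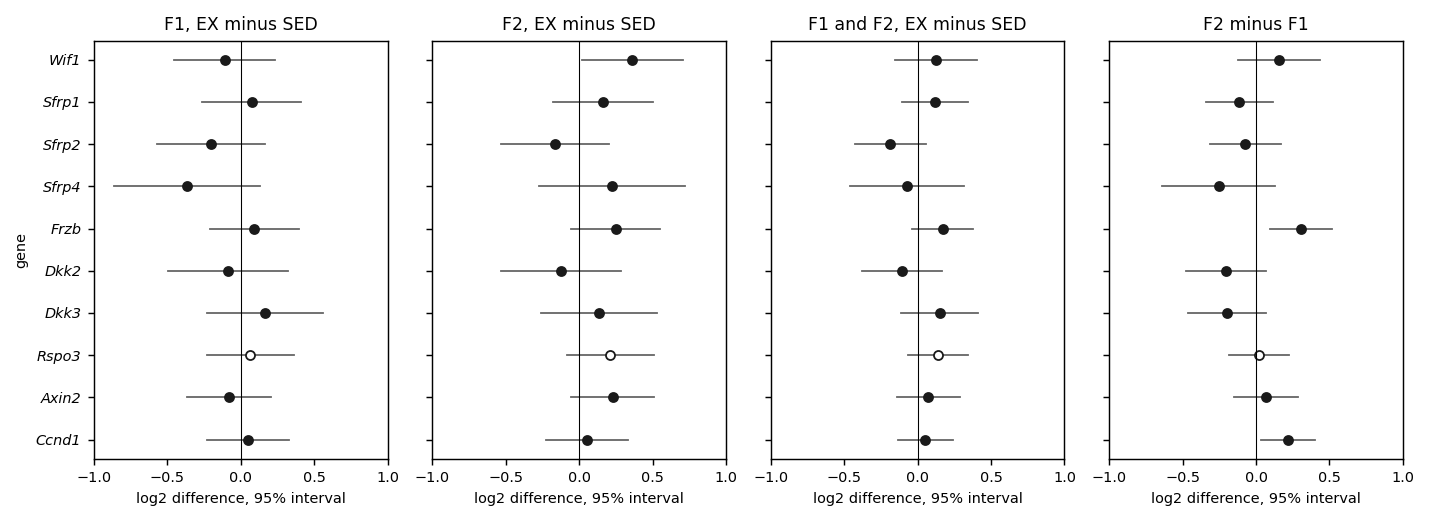
Log2 differences with 95% intervals from limma for each gene, in F1 and F2 (EX minus SED), over both generations (EX minus SED) and between generations (F2 minus F1); the open point for Rspo3 comes from the fit without the filter. Most intervals cross 0, and those for Wif1 in F2 (0.02 to 0.71) and for Frzb (0.10 to 0.51) and Ccnd1 (0.03 to 0.40) between generations do not.

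In F1 alone, limma called 0 of 9 genes (background 0.0% called), and 0 had an unadjusted p under 0.05 (background 4.88%, 584 genes). Both F1 EX pools lay above both F1 SED pools for 0 of the 10 genes and below for 0, against 13.0% and 16.6% of all genes. The difference was -0.11 (-0.45 to 0.23) for Wif1 and furthest from 0 for Sfrp4 at -0.37 (-0.87 to 0.13, limma adjusted p = 0.804). F1 EX pool 1, which stood apart from the other arrays, held the lowest descendant value of both genes. Without it the difference was 0.065 for Wif1 and -0.059 for Sfrp4, and without F1 EX pool 2 it was -0.29 and -0.68.

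In F2 most estimates lay above 0. Both F2 EX pools lay above both F2 SED pools for Wif1, Sfrp1, Frzb, Rspo3 and Axin2, 5 of the 10 genes, against 25.8% of all genes. They lay below both SED pools for 0 of 10, against 14.6%. Estimates were above 0 for 7 of the 9 fitted genes, with a median of 0.16, and for 60.7% of all genes, with a median of 0.04. By limma 0 of 9 were called (background 0.0%), and 1, Wif1, had an unadjusted p under 0.05 (background 4.45%, 532 genes). For Wif1 the difference was 0.36 ± 0.15 (SE, n = 2 pools in each group), with an interval of 0.02 to 0.71, an unadjusted p of 0.0410 and a limma adjusted p = 1.00. The interval included 0 with quantile normalization (0.32, from -0.03 to 0.66), without F2 EX pool 2 (0.23, from -0.20 to 0.67), and without either SED pool of F1 or F2. The Wif1 interval lay above 0 with array weights (0.36, from 0.09 to 0.63, limma adjusted p = 0.410). It also did with median centring (0.42, from 0.05 to 0.79, limma adjusted p = 0.828). Frzb had 0.25 (-0.06 to 0.55) and Axin2 0.23 (-0.06 to 0.51).

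Of the 12 marker lists, 5 had both F2 EX pools above both F2 SED pools, as Wif1 did, 1 had them below and 6 overlapped. The 5 were the endothelial, fibroblast, tenocyte and smooth muscle lists and the erythrocyte list, of which 1 gene passed the filter. Endothelial markers had a mean of 6.97 and 7.01 in the F2 EX pools against 6.88 and 6.89 in F2 SED. Fibroblast markers had 8.82 and 8.91 against 8.69 and 8.69, and tenocyte markers 7.22 and 7.50 against 7.05 and 7.09. Among all 8 descendant pools, F2 EX pool 2 was the highest in Wif1 and in 5 of the 12 lists, those of endothelial cells, fibroblasts, tenocytes, macrophages and muscle fibres. Over the 8 descendant arrays, the Pearson r of list means with Wif1 ran from -0.753 (proliferating cells, 1 gene) to 0.972 (endothelial). It was 0.87 for the tenocyte and 0.78 for the fibroblast list. The part of the markers in the Wif1 value was not tested.

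The difference between the F2 and the F1 ancestry effects was 0.47 ± 0.22 (SE) for Wif1, with an interval of -0.01 to 0.96, an unadjusted p of 0.0557 and a limma adjusted p = 0.919. It was 0.59 for Sfrp4 (-0.11 to 1.29) and 0.31 for Axin2 (-0.09 to 0.71). Limma called 0 of 9 genes (background 0.0%), and 0 had an unadjusted p under 0.05 (background 4.34%, 519 genes). The effect of ancestry on Wif1 is thus not shown to differ between F1 and F2. Without F1 EX pool 1 the difference for Wif1 was 0.30.

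Between the 2 descendant generations, which were of the same age, Frzb and Ccnd1 had no overlap. All 4 F2 pools lay above all 4 F1 pools for both of them, 2 of 10 genes, against 1.77% of all genes, and 0 of 10 lay wholly below (1.11%). Frzb had a mean of 5.12 ± 0.13 (SD, n = 4) in F1 and 5.43 ± 0.16 (SD, n = 4) in F2. The difference was 0.31 ± 0.09 (SE), with an interval of 0.10 to 0.51, an unadjusted p of 0.00838 and a limma adjusted p = 0.911. Ccnd1 had 5.98 ± 0.08 (SD, n = 4) in F1 and 6.20 ± 0.06 (SD, n = 4) in F2, a difference of 0.22 with an interval of 0.03 to 0.40, an unadjusted p of 0.0248 and a limma adjusted p = 0.911.

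Neither difference passed the adjusted threshold. Limma called 0 of 9 genes (background 0.0%), and 2 had an unadjusted p under 0.05 (background 4.25%, 509 genes). Wif1 was 0.15 higher in F2 (-0.12 to 0.43), while Dkk2 had -0.21 (-0.48 to 0.06), Dkk3 -0.20 (-0.46 to 0.07) and Sfrp4 -0.26 (-0.64 to 0.13). For 4 of the 9 genes the estimate was above 0, and the median was -0.07 against 0.00 over all genes.

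The rest of the Wnt pathway was read from a list of 122 genes, of which 121 were on the array and 96 passed the filter. Against the descendants, limma called 2 of the 96 lower in F0 and 0 higher, which is 2.08% where 2.84% of all genes were called. The median over the 96 was close to 0, as it was over all genes (-0.02). Called were 1 of 11 ligands, Wnt5a, and 1 of 11 other target genes, Ccnd2. None was called among 7 genes of ligand processing, 5 other extracellular modulators, 19 receptors and coreceptors, 16 cytoplasmic transducers, 13 nuclear factors and 14 genes of the planar polarity and calcium branch. Over these 96 genes 20 had an unadjusted p under 0.05, against 18.1% of all genes.

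Wnt5a, a ligand of the branches that do not use beta-catenin, was 4.56 in F0 EX, 3.55 in F0 SED and 4.74 to 5.37 in the descendants. Both F0 pools lay below all descendants. The difference was -0.95 ± 0.17 (SE, 2 against 8 pools; limma adjusted p = 0.0117). It rested in part on F0 SED, since without that pool it was -0.53 with a limma adjusted p of 0.255, and without F0 SED and F1 EX pool 1 together it was -0.60 (limma adjusted p = 0.107).

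Ccnd2, which encodes cyclin D2, was 6.88 in F0 EX, 6.95 in F0 SED and 7.12 to 7.56 in the descendants, again without overlap. The difference was -0.50 ± 0.12 (SE; limma adjusted p = 0.0438), close to the threshold. It kept its size under quantile normalization (-0.47) but lost the call (limma adjusted p = 0.0617). The call was also lost without F0 EX (limma adjusted p = 0.0991), without F0 SED (0.191) and without F0 SED and F1 EX pool 1 (0.131). Ror1, a receptor for Wnt5a, had -0.54 (limma adjusted p = 0.0542) and Fzd4, a Frizzled receptor of endothelial cells, -0.57 (limma adjusted p = 0.0962). Wls, which carries Wnt proteins to the cell surface, had 0.47 (limma adjusted p = 0.105), and Sfrp5, the remaining secreted Frizzled-related gene, 0.48 (limma adjusted p = 0.166). Chosen after their values were seen, Cd44 (-0.40, limma adjusted p = 0.0579), Wnt4 (0.49, limma adjusted p = 0.0743) and Myc (-0.50, limma adjusted p = 0.105) were not called either, and both F0 pools lay outside the descendants' range for all 3.

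**Figure D5:**
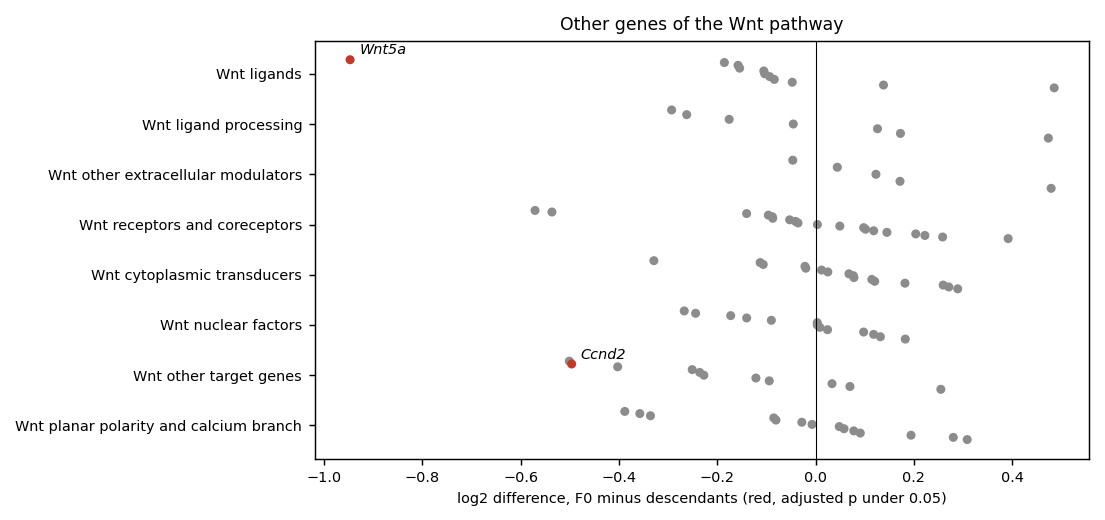
Log2 difference of F0 minus descendants for the 96 other Wnt pathway genes that passed the filter, by class; red points have a limma adjusted p under 0.05. Wnt5a (-0.95) and Ccnd2 (-0.50) are the red points, and each class lies on both sides of 0.

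In the descendants limma called 0 of the 96 pathway genes in each comparison. With an unadjusted p under 0.05 there were 6 for ancestry over both generations, 2 in F1, 1 in F2, 4 for the difference of both effects and 3 between F2 and F1. Among all genes the shares were 4.99%, 4.88%, 4.45%, 4.34% and 4.25%. The smallest of these for F2 against F1 was that of Sfrp5, which was lower in F2 by -0.39 (unadjusted p of 0.00360, limma adjusted p = 0.911), the opposite direction to Frzb. For ancestry over both generations Jun, a target with many other inputs, had 0.35 (unadjusted p of 0.0164, limma adjusted p = 0.888) and the receptor Fzd10 0.23 (unadjusted p of 0.0273, limma adjusted p = 0.888). Sulf2 had 0.29 (unadjusted limma p of 0.0315) and Cby1 0.26 (0.0386). The ligands Wnt3a (-0.22, unadjusted limma p of 0.0306) and Wnt6 (-0.22, 0.0492) lay below 0. Their limma adjusted p was 0.888 as well.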

How the data were processed

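Signals of 35557 probe sets on 10 arrays came in 1 deposited table, on a scale taken to be log2 from its range of 0.966 to 14.2. Affymetrix Expression Console is the software named in the submitters' processing notes. Its version, the normalization of the arrays and a build are not stated in those notes or in the labels. Values were used as deposited, and array medians lay between 3.22 and 3.36.

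Gene names came from the platform annotation in GEO, in which 21789 probe sets had 1 symbol, 1621 several and 12147 none. The probe set with the highest mean stood for a gene, and genes whose mean reached the 40th percentile (3.23) were kept, 11963 of 19938.

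Differences were fitted with limma 3.58.1 in R 4.3.3 (lmFit, eBayes) with Benjamini-Hochberg adjustment over the kept genes and a threshold of 0.05. F1 and F2 ancestry effects and their difference came from the 4 descendant groups. Ancestry over both generations and F2 against F1 came from an additive model of the 8 arrays, and F0 against descendants from an additive model of all 10. The script was tested on simulated data. Same-numbered pools did not deviate together (r from -0.111 to 0.0643), so no pairing was used.

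The genes, the pathway and marker lists, the tests and the alternatives were chosen with earlier results of these data known. Named in the text are all 10 genes, the 5 most like Wif1 over each set of arrays, and, for each list and comparison, genes from up to 4 called without overlap or, where none was called, from the 2 with the smallest p. Alternatives were quantile normalization, median centring, other filters, limma's trend and robust options, array weights, the mean of all probe sets, a replicate block, each pool left out in turn and, added after seeing the data, both arrays that stood apart left out.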

Additional observations from a re-analysis of the deposited data

Results flagged for a closer look

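Among 50 groups of 4 pools or more, 5 for each gene, 3 held a pool far from the others by Dixon's criterion, where chance gives about 1 in 20 groups. Wif1 in F1 SED pool 1 (6.14) was the highest of the 4 SED descendants, the nearest being 6.02. Dkk2 in F2 SED pool 2 (4.44) was the lowest of the same 4 pools, the nearest being 4.83. Ccnd1 in F2 SED pool 2 (6.11) was the lowest of the 4 F2 pools, the nearest being 6.22.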

How the results depend on the processing

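In the 5 comparisons of descendants, limma called 0 of the genes described here under each alternative run. Over all genes, F2 against F1 called 2 with limma's trend and robust options and 1 with array weights. Leaving out each pool in turn gave 0 to 1046 called genes for F1 ancestry, 1046 being without F1 EX pool 2, and 0 to 143 for the difference of F2 and F1 effects. F0 against descendants called 340 genes, 30 with array weights, 204 without F0 SED and F1 EX pool 1, and 89 to 1297 with each pool left out, 89 being without F0 SED and 1297 without F0 EX. Pathway genes called in it were 1 with quantile normalization, 1 with centring, 1 with no filter, 0 with array weights, and 0 to 8 with each pool left out. With the replicate block 0 genes were called in each descendant comparison, and the smallest adjusted p for F2 against F1 was 0.356.

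Small estimates of the genes changed sign. Sfrp4 for ancestry over both generations was 0.13 with array weights, 0.14 with the F0 pools included and 0.11 without F0 SED and F1 EX pool 1, which also gave 0.065 for Wif1 and -0.045 for Ccnd1 in F1. Axin2 between the F0 pools was 0.035 with centring. With each pool left out, the ranges were -0.22 to 0.11 for Sfrp4 over both generations. In F1 they were -0.29 to 0.065 for Wif1, -0.13 to 0.27 for Sfrp1, -0.030 to 0.21 for Frzb, -0.22 to 0.050 for Dkk2, -0.030 to 0.36 for Dkk3, -0.17 to 0.0079 for Axin2 and -0.045 to 0.15 for Ccnd1. In F2 they were -0.34 to 0.085 for Dkk2 and -0.0034 to 0.11 for Ccnd1, and for F2 against F1 -0.15 to 0.0090 for Sfrp2. The causes were not tested. Precision is limited by 1 pool in each F0 group and 2 in each descendant group.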
